A study of Homo sapiens with 4 samples.

Results

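The 13 protein-coding genes of the mitochondrial genome (mtDNA) and 25 nuclear genes whose products copy, transcribe or process it were examined in cells of MDA-MB-468, an established breast cancer line of basal type. The 38 genes were chosen by symbol from the 26518 genes of a table of TPM values (transcript abundance corrected for gene length and scaled per library), and all 38 had a row and a mean of at least 1 TPM. The 2 shControl libraries came from cells carrying the lentiviral vector pGIPZ-CTRL and the 2 shSASH1 libraries from cells carrying a lentiviral hairpin against SASH1, which encodes an adaptor protein of signalling pathways. All cells were kept as stable puromycin-selected lines in DMEM with 5% serum, so both groups had the same kind of infection and selection. Other differences between the lines cannot be told apart from SASH1 depletion. The labels give neither the number of clones or hairpins nor separate cultures, so the p-values reflect the spread among these libraries alone, which may be technical. The study asked how the transcriptome differs between control and SASH1-depleted cells.

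Human mtDNA is a small circle transcribed from both strands into long precursors that hold many genes end to end. Transfer RNAs lie between most of the coding genes, and cutting at the 2 ends of each transfer RNA, by RNase P and by the RNase Z enzyme ELAC2, frees the messenger RNAs. All proteins that copy, transcribe, cut, tail and degrade these RNAs are made from nuclear genes and imported. The products of the 13 coding genes are subunits of respiratory complexes I, III, IV and V, which carry out oxidative phosphorylation. Breast cancer cells make ATP by these complexes and by glycolysis.

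The 3 junctions of the mitochondrial genome shown first were chosen with the results known and run from MT-ATP6 to MT-ND4L on one precursor. MT-ATP6, MT-CO3 and MT-ND3 fell, and MT-ND4L did not pass. The letters are from GENCODE transcripts on hg38, plus strand, 5′ to 3′, with 20 bases of each flanking gene in lower case. Capitals mark the 1 base that the coding genes share, or the transfer RNA between them (MT-TG, 68 bases, and MT-TR, 65 bases).
MT-ATP6 to MT-CO3, chrM:9187-9227: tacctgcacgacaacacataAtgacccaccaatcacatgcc
MT-CO3 to MT-ND3, chrM:9971-10078: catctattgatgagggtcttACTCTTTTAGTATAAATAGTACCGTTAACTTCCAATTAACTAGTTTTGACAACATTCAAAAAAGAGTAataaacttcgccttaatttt
MT-ND3 to MT-ND4L, chrM:10385-10489: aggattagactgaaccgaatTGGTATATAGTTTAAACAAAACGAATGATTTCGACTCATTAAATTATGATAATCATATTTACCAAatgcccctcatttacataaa
The first junction has no transfer RNA, and FASTKD5 is known to act on such junctions. At the last one MT-ND3, which fell, meets MT-ND4L, which did not pass. Genes farther from it on either side do not all follow this division, as given further on.

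Read numbers rebuilt from TPM and exon length came to between 19528038 and 24362322 per library. SASH1 (chromosome 6, 148272304 to 148552050) stood at 15.0 and 13.03 TPM in shControl and 3.65 and 4.01 TPM in shSASH1 (log2 change -1.63 ± 0.13 SE, limma adjusted p = 0.00391). The epithelial markers EPCAM, CDH1, KRT8, KRT18, KRT5 and KRT17 and the receptor EGFR were all above 48 TPM in every library. Their levels were not all alike. EGFR was higher in shSASH1 (log2 change 0.97 ± 0.07 SE, limma adjusted p = 0.0034), while the other 6 did not pass. KRT17 was at 560 and 227 TPM in the 2 shSASH1 libraries. PGR and ESR1 were listed as receptors that this line lacks. PGR was at 0.0248 TPM or less, but ESR1 was between 2.29 and 3.64 TPM, above the filter of 1 TPM. The 4 leukocyte markers PTPRC, CD3E, CD68 and LYZ stayed at or below 0.158 TPM. COL1A1 was at 6.32 to 10.9 TPM while COL1A2, its partner chain in fibroblasts, was listed at 0. PDGFRB, another fibroblast marker, was at 0.0204 to 0.134 TPM. The endothelial marker PECAM1 was at 0.551 to 2.20 TPM, while CDH5 was at 0.157 to 0.501 TPM and VWF at 0.0551 to 0.182 TPM. Over all 14458 genes tested, 2712 (18.8%) were higher and 1918 (13.3%) lower in shSASH1 at a limma adjusted p under 0.05, with a median log2 change of 0.06. After quantile normalization the split was 2280 higher and 2434 lower, and voom on rebuilt reads gave 2538 higher and 2814 lower.

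The transcripts of the mitochondrial genome fell unevenly after SASH1 depletion. Of the 13 genes, 6 were lower (46.2%, against 13.3% of all genes tested) and 0 were higher (0 with limma at an unadjusted p under 0.05, and 0 with voom), and the largest fall was that of MT-CO3. MT-ND3, MT-ATP6, MT-ND1, MT-ND2 and MT-CYB fell as well. The median log2 change of the 13 was -0.41. MT-CO1, the row with the highest TPM in all 4 libraries, did not pass, nor did MT-CO2, MT-ATP8, MT-ND4L, MT-ND4, MT-ND5 or MT-ND6. Log2 changes are limma's on log2(TPM + 1), given with their SE, for 2 libraries per group.

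MT-CO3, a core subunit of complex IV (cytochrome c oxidase), had 18149 and 18551 TPM in shControl but 10533 and 8565 TPM in shSASH1. Both shSASH1 values were far below both control values. The mean went from 18350 ± 284 to 9549 ± 1392 TPM (SD, n = 2 per group; log2 change -0.95 ± 0.14, limma adjusted p = 0.0125). MT-ND3, a small membrane subunit of complex I (NADH dehydrogenase), was at 3955 and 4000 TPM in shControl and 2579 and 2339 TPM in shSASH1 (log2 change -0.70 ± 0.08, limma adjusted p = 0.00789). MT-ATP6, the proton channel subunit of complex V (ATP synthase), was at 6721 and 6609 TPM in shControl and 4622 and 3702 TPM in shSASH1 (-0.69 ± 0.13, limma adjusted p = 0.0228). These 3 genes lie side by side, from position 8527 to position 10404 of the mitochondrial genome, across the first 2 junctions printed above. No shSASH1 value of any of them reached a control value, which was also so for 32.3% of all genes tested.

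**Figure D1:**
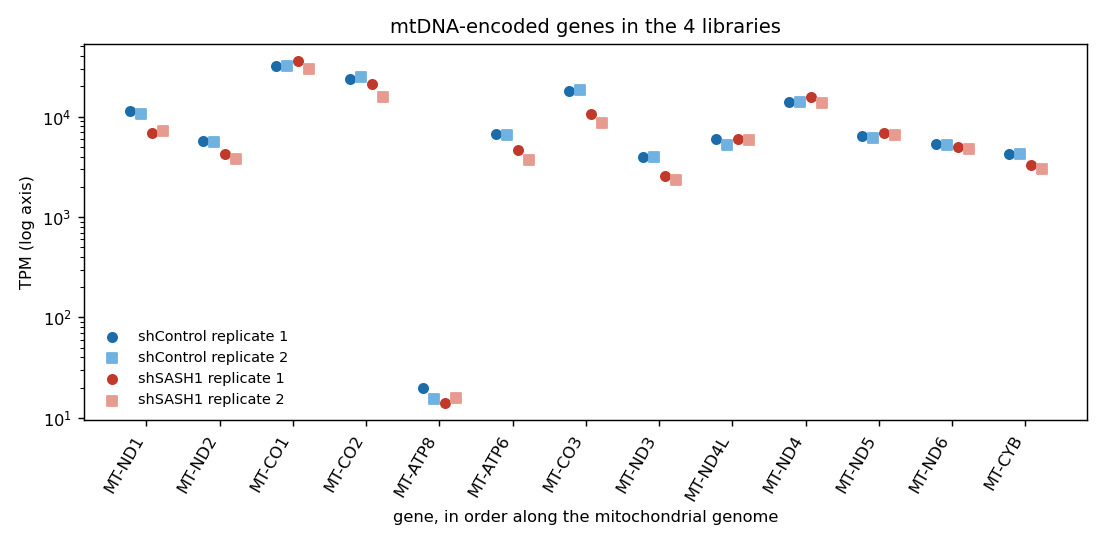
TPM of each mtDNA-encoded gene (log axis) in genome order, with 1 point per library. MT-ATP6, MT-CO3 and MT-ND3 show both shSASH1 points below both shControl points, MT-ND4L and MT-ND4 show overlapping points, and MT-ATP8 stands alone at 14 to 19.8 TPM.

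MT-ND1, at the start of the coding region, was at 11380 and 10656 TPM in shControl and 6924 and 7179 TPM in shSASH1 (log2 change -0.64 ± 0.10, limma adjusted p = 0.0130). It encodes the complex I subunit that lines part of the quinone site. MT-ND2, another membrane subunit of complex I, was at 5681 and 5627 TPM in shControl and 4224 and 3748 TPM in shSASH1 (-0.51 ± 0.10, limma adjusted p = 0.0220). MT-CYB, the cytochrome b of complex III and the last coding gene of the circle, was at 4252 and 4204 TPM in shControl and 3322 and 3012 TPM in shSASH1 (-0.42 ± 0.09, limma adjusted p = 0.0269). In all 3 genes the groups were clear of each other. Of the 13 genes, 8 had both shSASH1 libraries below both shControl libraries, against 32.3% of all genes tested, and 1 (MT-ND5) had both above, against 41.3%. In either direction that is 9 of 13, against 73.6%.

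Directly after MT-ND3 come MT-ND4L, MT-ND4 and MT-ND5, and none of these passed. MT-ND4L was at 5935 and 5208 TPM in shControl and 5978 and 5784 TPM in shSASH1, with a log2 change of 0.08 and a 95% interval of -0.19 to 0.36. MT-ND4 was at 13996 and 13876 TPM in shControl and 15835 and 13625 TPM in shSASH1 (log2 change 0.08, interval -0.26 to 0.41). MT-ND5 was at 6447 and 6103 TPM in shControl and 6830 and 6568 TPM in shSASH1 (log2 change 0.09, interval -0.14 to 0.33). These complex I genes sit on the same heavy-strand precursor as MT-ND3 and MT-CO3, and their intervals do not reach the fitted falls of either gene. Without shSASH1 replicate 1 the change of MT-ND4 was -0.03, and without shControl replicate 2 that of MT-ND4L was -0.01. After quantile normalization, which gives the top ranks of every library the same values, MT-ND4L, MT-ND4 and MT-ND5 were called higher (0.31, 0.51 and 0.27, limma adjusted p = 0.0343, 0.00428 and 0.0230).

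MT-CO1, the catalytic subunit of complex IV, was at 32098 and 32113 TPM in shControl and 35677 and 29685 TPM in shSASH1. The shSASH1 libraries lay on either side of the controls, with a log2 change of 0.02 and a 95% interval of -0.40 to 0.44. Its sign turned negative with median-of-ratios scaling (-0.04), with voom on rebuilt reads (-0.06) and without shSASH1 replicate 1 (-0.11). MT-CO2, the subunit that accepts electrons from cytochrome c, was at 23750 and 24751 TPM in shControl and 21288 and 15650 TPM in shSASH1. Both shSASH1 values were lower, but they differed widely from each other and the gene did not pass (log2 change -0.41 ± 0.19, limma adjusted p = 0.162). Without shSASH1 replicate 1 the log2 change of MT-CO2 was -0.63 and without replicate 2 it was -0.19. With voom on rebuilt reads MT-CO2 passed. MT-ND6, a complex I subunit and the only one of the 13 coding genes annotated on the minus strand, was at 5286 and 5210 TPM in shControl and 4996 and 4736 TPM in shSASH1 (-0.11 ± 0.08, limma adjusted p = 0.353). Whether counting used the strand is not given in the sources used here. Without it, reads of MT-ND6 and of heavy-strand RNA running across it cannot be told apart.

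MT-ATP8, the other mtDNA-encoded subunit of complex V, was at 19.8 and 15.5 TPM in shControl and 14.0 and 15.7 TPM in shSASH1, and the groups overlapped. These levels rest on only 17 to 24 rebuilt reads per library, while MT-ATP6 on the same messenger RNA had 13178 to 30884. MT-ATP8 spans 207 bases, of which the last 46 also belong to MT-ATP6, as the sequence of the overlap shows, with the MT-ATP6 start codon and the MT-ATP8 stop codon in capitals.
MT-ATP8 and MT-ATP6, chrM:8527-8572: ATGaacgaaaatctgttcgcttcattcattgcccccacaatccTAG
How reads touching both genes were counted is not given in the sources used here, and its part in the low value was not tested. MT-ND4L (297 bases) and MT-ND4 share only 7 bases (positions 10760 to 10766), a smaller part of the gene, so the overlaps are unlike. MT-ND4L had 5208 to 5978 TPM.

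The 13 genes together made up 14.9% and 14.8% of the summed TPM of all rows in shControl and 13.3% and 11.5% in shSASH1. The rows sum to 910830 to 926711 TPM per library, so these are shares of the listed genes and not of the whole library. The mean share fell from 14.8% ± 0.0801 to 12.4% ± 1.298 (SD, n = 2 per group), a difference of -2.43 percentage points. The exact two-sided permutation test gave p = 0.33, the smallest value that 2 against 2 libraries allow. Leaving out shSASH1 replicate 1 gave -3.35 points and leaving out replicate 2 gave -1.51 points. Shares are relative: in such bulk RNA, less mitochondrial RNA per cell, fewer cells rich in it and more of other RNA cannot be told apart. Within shSASH1, replicate 2 was below replicate 1 in 11 of the 13 genes, with a median difference of -0.14 log2 units. Over all genes tested replicate 2 was below in 6117 and above in 8301, with a median difference of 0.0458.

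Shares within the 13 genes do not depend on how much of the library they take. MT-CO1 made up 23.3% and 23.5% of the 13 in shControl and 29.05% and 28.38% in shSASH1. MT-CO3 made up 13.2% and 13.5% in shControl and 8.58% and 8.19% in shSASH1. MT-ND4 went the way of MT-CO1, from 10.2% and 10.1% to 12.89% and 13.03%. The ratio of MT-CO3 to MT-CO1 was 0.565 and 0.578 in shControl and 0.295 and 0.289 in shSASH1, so the shSASH1 libraries, which differed in total mitochondrial share, nearly coincided in this ratio. The ratio of MT-ND3 to its neighbour MT-ND4L was 0.666 and 0.768 in shControl and 0.431 and 0.404 in shSASH1. That of MT-ND1 to MT-ND5 was 1.77 and 1.75 in shControl and 1.01 and 1.09 in shSASH1. By complex, the genes of complex V made up 4.90% and 4.84% of the 13 in shControl and 3.77% and 3.55% in shSASH1. Those of complex IV, with MT-CO1 and MT-CO3 moving apart, overlapped between groups (53.7% and 55.1% against 55.0% and 51.5%). These shares and ratios were chosen for description. In the exact two-sided permutation test the shares of MT-CO1, MT-CO3, MT-ND4 and complex V had p = 0.33, the smallest value possible here. The share of complex IV had p = 0.67 in that permutation test, and the ratios were not tested.

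**Figure D2:**
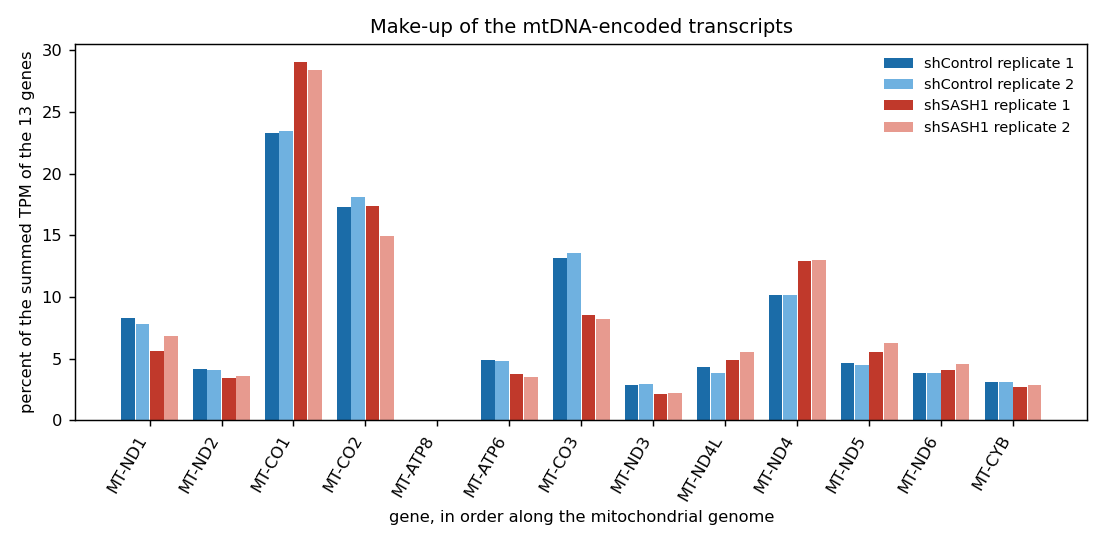
Share of each gene in the summed TPM of the 13 mtDNA-encoded genes (percent), with 1 bar per library, in genome order. For MT-CO1, MT-CO3 and MT-ND4 the 2 libraries of a group are close to each other, while the shSASH1 libraries differ for MT-CO2 (17.3% and 15.0%) and MT-ND1 (5.64% and 6.86%). MT-CO1 and MT-ND4 take larger shares in shSASH1 and MT-CO3 a smaller one (8.58% and 8.19% against 13.2% and 13.5%).

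Neither gene length nor base composition ordered the changes closely. Across the 13 genes, which share libraries and precursors, Pearson's correlation of the log2 change was 0.34 with length, -0.14 with GC content and 0.32 with the start position on the genome, and -0.01 with the log2 mean TPM. Spearman's correlations for these measures were 0.26, -0.14, 0.35 and 0.25. MT-CO1 and MT-CO3, with GC contents of 46.2% and 46.6%, lay near opposite ends of the changes.

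The calls of all 6 genes depended on the shControl pair, whose spread was narrow (a median SD of 0.0172 log2 units over the 13 genes, against 0.109 in shSASH1). Over all genes tested the shControl pair was narrower too (a median SD of 0.0507, against 0.126 in shSASH1). Without shControl replicate 1 or without shControl replicate 2, 0 of the 14458 genes passed, with 3446 and 3326 at an unadjusted limma p under 0.05, and MT-CO3 kept log2 changes of -0.97 (limma adjusted p = 0.241) and -0.93 (0.267). Without a filter on low values only MT-ND3 of the 13 passed, and after quantile normalization MT-ATP6, MT-CO3 and MT-ND3 were the 3 called lower.

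Among the nuclear factors few genes passed. Of 25, 2 were higher (TFB2M and SUPV3L1), 1 was lower (HSD17B10) and 22 did not pass, so 12% were called, against 32.0% of all genes tested. At an unadjusted limma p under 0.05 there were 9 of the 25 (6 higher and 3 lower), against 6695 of all 14458 genes tested. The median log2 change of the 25 was -0.07. Of the 25, 9 had both shSASH1 libraries above both controls and 10 had both below, against 41.3% and 32.3% of all genes tested. With every mtDNA row removed and the rest rescaled, the 3 nuclear calls remained.

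**Figure D3:**
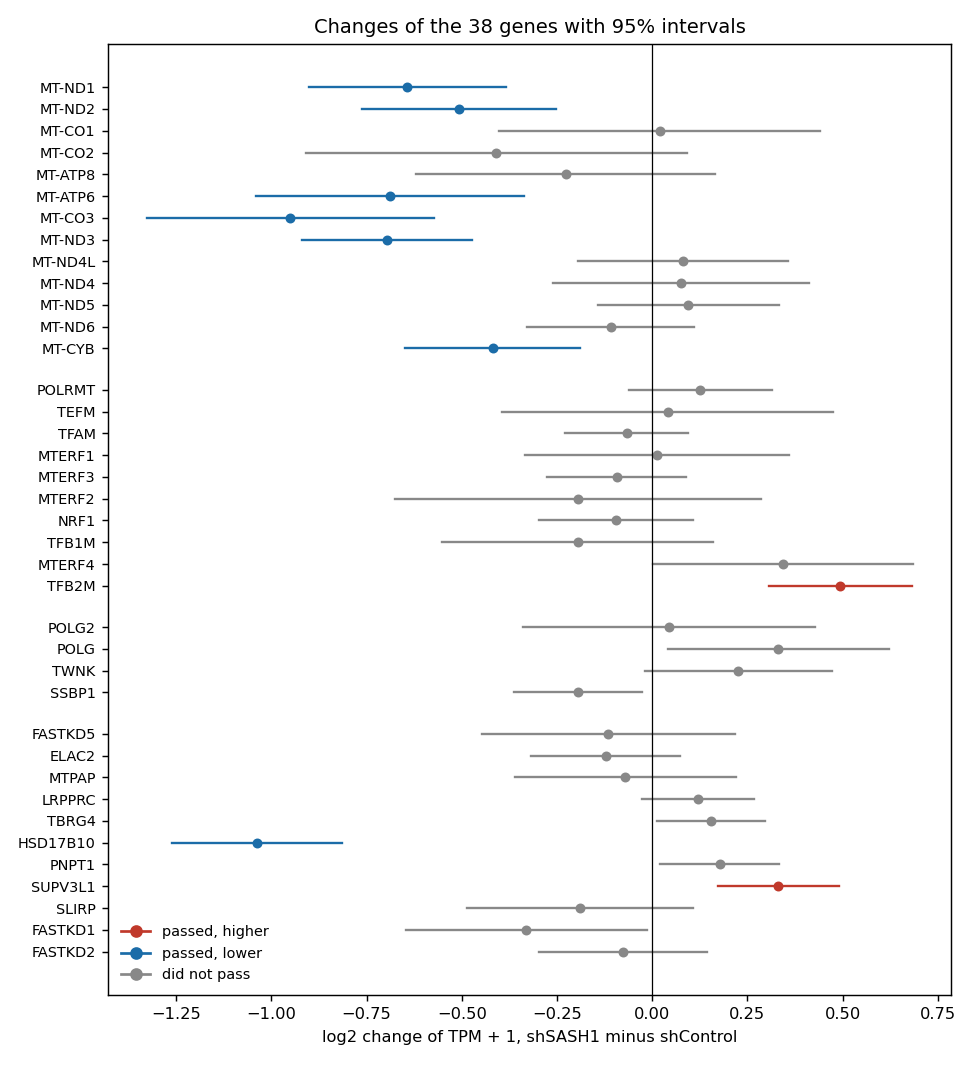
Log2 change of TPM + 1 (shSASH1 minus shControl) of all 38 genes with limma's 95% intervals, grouped as mtDNA-encoded genes and then factors of transcription, replication and RNA processing, with colour showing the call. The 6 mtDNA-encoded genes that passed and HSD17B10 lie left of 0, TFB2M and SUPV3L1 lie right of 0, and most nuclear factors have intervals that include 0.

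HSD17B10 showed the largest change of all 38 genes. Its product is a subunit of mitochondrial RNase P, which cuts the 5′ ends of transfer RNAs, and also an enzyme of isoleucine breakdown. It was at 304 and 306 TPM in shControl and 159 and 138 TPM in shSASH1, so its groups were far apart. The mean fell from 305 ± 1.42 to 149 ± 14.9 TPM (log2 change -1.04 ± 0.08, limma adjusted p = 0.00391). The gene lies on chromosome X (53431258 to 53434373, minus strand, hg38), in a 20 Mb window where the 102 genes tested had a median log2 change of -0.88. With each gene centred on the median of its window, HSD17B10 had a log2 change of -0.15 and did not pass (limma adjusted p = 0.235). Its fall thus cannot be told apart from the shift of the window. Without shControl replicate 1 or 2 it stood at -1.04 and -1.03 (limma adjusted p = 0.103 and 0.104).

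The other RNase P subunits and the RNase Z enzyme showed no call. ELAC2, which cuts the 3′ ends of transfer RNAs, was at 37.99 and 37.78 TPM in shControl and 36.0 and 33.5 TPM in shSASH1 (log2 change -0.12, 95% interval -0.32 to 0.07). TRMT10C, a partner of HSD17B10 in RNase P, was at 79.1 and 80.6 TPM in shControl and 73.8 and 70.3 TPM in shSASH1 (log2 change -0.15, limma adjusted p = 0.131). PRORP, the subunit that cuts, was at 2.44 and 3.67 TPM in shControl and 2.49 and 3.66 TPM in shSASH1, with overlapping groups. FASTKD5, the factor of junctions without transfer RNA, was at 51.6 and 47.8 TPM in shControl and 41.0 and 51.1 TPM in shSASH1, with overlapping groups. Its log2 change was -0.12, but 0.37 centred on its window (limma adjusted p = 0.0915) and 0.04 without shSASH1 replicate 1.

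SUPV3L1, the RNA helicase of the mitochondrial RNA-degrading complex, rose. It was at 50.3 and 49.5 TPM in shControl and 62.4 and 63.6 TPM in shSASH1, with both pairs tight (log2 change 0.33 ± 0.06, limma adjusted p = 0.0195). The gene lies on chromosome 10 (69180232 to 69209099, plus strand), in a window with a median log2 change of 0.02, and centred on it the change was 0.31 and still passed (limma adjusted p = 0.0268). Without shControl replicate 1 or 2 it was 0.34 and 0.32 (limma adjusted p = 0.202 and 0.228). PNPT1, the ribonuclease of the same complex, was at 52.8 and 52.1 TPM in shControl and 59.3 and 59.6 TPM in shSASH1. Its groups did not overlap, but it did not pass (log2 change 0.18 ± 0.06, limma adjusted p = 0.0821).

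Factors that stabilise and tail messenger RNAs did not pass. LRPPRC, the main binder of mitochondrial messenger RNAs, was at 144 and 145 TPM in shControl and 161 and 154 TPM in shSASH1 (log2 change 0.12, limma adjusted p = 0.161). Its partner SLIRP pointed the other way, at 39.5 and 42.4 TPM in shControl and 39.2 and 32.6 TPM in shSASH1 (-0.19, limma adjusted p = 0.250). MTPAP, the poly(A) polymerase, was at 9.09 and 9.80 TPM in shControl and 8.78 and 9.11 TPM in shSASH1, with overlapping groups. TBRG4, also known as FASTKD4, was at 96.9 and 96.5 TPM in shControl and 107.6 and 107.7 TPM in shSASH1 (0.15 ± 0.05, limma adjusted p = 0.0904). FASTKD1, known to act on the MT-ND3 messenger RNA, was at 22.1 and 21.4 TPM in shControl and 18.8 and 15.5 TPM in shSASH1 (-0.33 ± 0.12, limma adjusted p = 0.0982). With voom on rebuilt reads FASTKD1 passed. FASTKD2, a relative that binds mitochondrial ribosomal RNA, had a log2 change of -0.08, and centred on its window (median 0.33) it passed at -0.41 (limma adjusted p = 0.0336). Leaving out either shSASH1 library raised the number of calls among all genes, so calls of single factors in those fits are not listed.

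Of 10 factors of transcription 1 rose (10%, against 18.8% of all genes tested) and 0 fell (against 13.3%). At an unadjusted limma p under 0.05, 0 of the 10 fell, against 2836 of all 14458 genes tested. TFB2M, which opens the promoter together with the DNA-packing factor TFAM and the polymerase POLRMT, was at 54.10 and 50.05 TPM in shControl and 72.1 and 75.3 TPM in shSASH1 (log2 change 0.49 ± 0.07, limma adjusted p = 0.0115). It lies on chromosome 1 (246540560 to 246566324, minus strand), in a window of 31 tested genes with a median of 0.37. Centred on that window its change was 0.12 and did not pass (limma adjusted p = 0.259), so its rise cannot be told apart from the window's. Without shControl replicate 1 or 2 it was 0.55 and 0.44 (limma adjusted p = 0.129 and 0.160). Its paralog TFB1M, a ribosomal RNA methyltransferase, was at 11.16 and 10.03 TPM in shControl and 8.34 and 9.94 TPM in shSASH1 (-0.20, or 0.18 centred on its window, limma adjusted p = 0.311 and 0.352).

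The rest of the core transcription machinery did not pass. TFAM was at 74.1 and 72.0 TPM in shControl and 68.3 and 71.1 TPM in shSASH1 (log2 change -0.07, 95% interval -0.23 to 0.09). POLRMT was at 44.5 and 45.4 TPM in shControl and 47.3 and 51.1 TPM in shSASH1 (0.13, interval -0.06 to 0.31). TEFM, the elongation factor, was at 10.7 and 9.65 TPM in shControl and 12.1 and 9.11 TPM in shSASH1, so the shSASH1 pair enclosed the controls. NRF1, the nuclear transcription factor known for activating many of these genes, was at 22.0 and 22.1 TPM in shControl and 20.4 and 20.8 TPM in shSASH1 (-0.09, interval -0.30 to 0.11). These missed thresholds do not show equal levels, and the intervals give the range of changes that 2 libraries per group allow.

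The MTERF proteins are helical-repeat factors, of which MTERF1 is known for stopping transcription beyond the ribosomal RNA genes and MTERF4 for recruiting NSUN4 to the ribosome. MTERF1 was at 6.59 and 7.63 TPM in shControl and 6.98 and 7.34 TPM in shSASH1, inside the spread of the controls. MTERF2 (log2 change -0.19) and MTERF3 (-0.09) did not pass either. MTERF4 was at 7.69 and 6.70 TPM in shControl and 8.94 and 9.82 TPM in shSASH1 (0.34 ± 0.13, limma adjusted p = 0.107), and centred on its window (median 0.36) its change was -0.02. In the plot of nuclear factors against their windows, MTERF4, TFB2M and HSD17B10 lie near the line of equal values. Others lie off it, such as POLG (0.33 against -0.01), FASTKD1 (-0.33 against 0.09), FASTKD2 (-0.08 against 0.33) and FASTKD5 (-0.12 against -0.49).

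**Figure D4:**
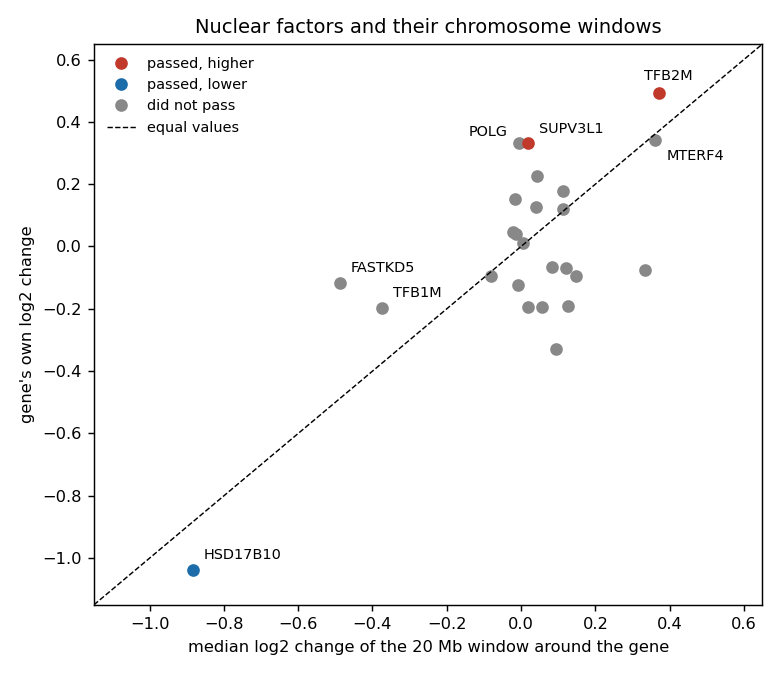
Log2 change of each of the 25 nuclear factors (vertical) against the median log2 change of the genes tested in its 20 Mb chromosome window (horizontal), with a dashed line of equal values. HSD17B10 (-1.04 against -0.88), TFB2M (0.49 against 0.37) and MTERF4 (0.34 against 0.36) lie near the line, while SUPV3L1 (0.33 against 0.02), POLG and FASTKD5 lie above it and FASTKD1 and FASTKD2 below it.

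Of the 4 replication factors 0 passed, against 32.0% of all genes tested. At an unadjusted limma p under 0.05 there were 2, 1 in each direction, against 6695 of all 14458 genes tested. POLG, the catalytic subunit of the mtDNA polymerase, was at 48.0 and 43.8 TPM in shControl and 53.2 and 63.2 TPM in shSASH1 (log2 change 0.33 ± 0.11, limma adjusted p = 0.0814). Its accessory subunit POLG2 was at 20.9 and 20.6 TPM in shControl and 18.7 and 24.5 TPM in shSASH1, on either side of the controls. TWNK, the replicative helicase, was at 25.9 and 23.3 TPM in shControl and 27.8 and 30.0 TPM in shSASH1 (0.23 ± 0.09, limma adjusted p = 0.129). SSBP1, the single-stranded DNA-binding protein, was at 95.2 and 97.1 TPM in shControl and 86.8 and 81.0 TPM in shSASH1 (-0.19 ± 0.06, limma adjusted p = 0.0795). SSBP1 passed after quantile normalization and with voom on rebuilt reads. The number of mtDNA copies was not measured.

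NRF1 binds a palindromic GC-rich element, so the 250 bases before the RefSeq start of each nuclear factor were searched on both strands for a core string of 10 letters with 1 free base (called here the NRF1 core), and for the shorter GCATGCGC, which can overlap it. The table held promoters of 21 of the 25 genes. The NRF1 core occurred in 4 of the 21 (19.0%: TFAM, POLRMT, POLG2 and TFB1M), against 11.6% of 10911 tested genes with a promoter and 6.20% of all 27305. GCATGCGC occurred in 4 of 21 (POLRMT, TFB1M, TFB2M and MTPAP), against 5.43% and 3.22%. CCGGAAG, a core letter string of ETS-family elements such as those of the GABP complex, occurred in 9 of 21 (42.9%), against 18.2% and 10.2%. Of the 3 nuclear genes called, TFB2M held GCATGCGC, and HSD17B10 and SUPV3L1 held none of these 3 strings in this window, which says nothing of factor binding. The promoters of TFAM, which did not pass, and of TFB2M, which rose, are printed from RefSeq on GRCh38.p14, 5′ to 3′ in the direction of the gene, with matches to either NRF1 string in capitals.
TFAM, chr10:58385160-58385409, plus strand: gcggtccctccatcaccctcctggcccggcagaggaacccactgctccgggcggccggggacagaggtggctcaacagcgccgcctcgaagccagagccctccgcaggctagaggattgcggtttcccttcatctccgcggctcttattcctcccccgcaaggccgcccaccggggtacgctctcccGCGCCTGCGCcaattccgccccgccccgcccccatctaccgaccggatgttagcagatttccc
TFB2M, chr1:246566262-246566511, minus strand: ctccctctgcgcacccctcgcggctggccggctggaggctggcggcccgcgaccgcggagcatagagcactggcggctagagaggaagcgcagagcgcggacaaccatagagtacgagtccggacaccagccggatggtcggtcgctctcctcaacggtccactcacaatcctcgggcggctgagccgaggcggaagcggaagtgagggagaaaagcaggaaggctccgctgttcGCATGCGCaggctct

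The wider machinery of mitochondrial gene expression gave mixed calls. Of 27 tested genes of transfer and ribosomal RNA maturation, 2 rose (7.41%, against 18.8% of all genes tested) and 1 fell (3.70%, against 13.3%), with a median log2 change of 0.01. TRIT1, which modifies transfer RNA, rose by 0.84 and NSUN4, the partner of MTERF4, by 0.66, and RPUSD3, a pseudouridine synthase, fell (-0.49). Both higher genes lie on chromosome 1, in windows with medians of 0.28 and 0.35, and centred on its window NSUN4 did not pass (0.30, limma adjusted p = 0.0613). Of 21 translation factors, 0 rose (2 at an unadjusted limma p under 0.05) and 2 fell (9.52%, against 13.3% of all genes tested), with a median of -0.10. These were MTFMT, which formylates the initiator transfer RNA (-0.63), and RMND1 (-0.61; -0.23 centred on its window, limma adjusted p = 0.139). Of 20 genes that charge mitochondrial transfer RNAs, 1 rose (5.00%, against 18.8% of all genes tested) and 5 fell (25.0%, against 13.3%), with a median of -0.23. Among those that fell were QRSL1 (-0.62), FARS2 (-0.51) and WARS2 (-0.49), while PARS2 rose (0.42). Centred on their windows WARS2 (-0.31) and PARS2 (0.07) did not pass (limma adjusted p = 0.0694 and 0.605).

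Of 25 tested genes of mtDNA maintenance and nucleotide supply, 2 rose (8%, against 18.8% of all genes tested) and 6 fell (24.0%, against 13.3%), with a median of -0.08. The mitochondrial exonuclease MGME1 went from 88.6 and 82.3 TPM to 53.4 and 48.5 TPM (log2 change -0.73), and the topoisomerase TOP1MT (-0.67), the nuclease ENDOG (-0.60) and the pyrimidine nucleotide carrier SLC25A33 (-0.47) fell too. MGME1 and TOP1MT lie in windows with medians of -0.49 and -0.42, and centred on them they did not pass (-0.25 and -0.26, limma adjusted p = 0.0849 and 0.0599). Of 13 tested regulators of mitochondrial biogenesis, 2 rose (15.4%, against 18.8% of all genes tested) and 0 fell (against 13.3%), with a median of 0.14. At an unadjusted limma p under 0.05, 0 of the 13 fell, against 2836 of all 14458 genes tested. The orphan nuclear receptor ESRRA rose from 138 and 143 TPM to 192 and 187 TPM (0.43). The transcription factor YY1 rose from 63.2 and 63.6 TPM to 87.7 and 98.9 TPM (0.55).

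For comparison, the nuclear genes of the same respiratory complexes were counted in the same way. Of 36 tested nuclear genes of complex I, 14 fell and 1 rose (38.9% lower, against 13.3% of all genes tested), with a median log2 change of -0.18. Of 34 nuclear genes of complexes III, IV and V, 20 fell and 1 rose (58.8% lower), with a median of -0.31. Among 76 mitochondrial ribosomal proteins 19 fell (25.0%) and 9 rose (11.8%, against 18.8% of all genes tested), with a median of -0.16. NDUFB11 of complex I, which lies on chromosome X in the window of HSD17B10, had a change of -1.35, or -0.46 centred on it, and still passed. The difference between these lists and the nuclear factors was not tested.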

How the data were processed

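RNA-seq libraries were made from total RNA of MDA-MB-468 cells with an NEBNext Ultra kit, per the labels' protocols, and 4 libraries were grouped by title (2 shControl, 2 shSASH1). The authors deposited a table of TPM for Ensembl genes. Per the submitters' processing notes STAR, DESeq2 and hg38 were used, with no version or role named. The sources used here do not give the read counter, the annotation or the strand setting. The rows sum to 910830 to 926711 TPM per library. Among them 13 lie on mtDNA, all of them the coding genes, so there are no rows for mitochondrial ribosomal or transfer RNA. Nuclear copies of mtDNA genes were not analysed here.

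All 26518 identifiers matched GENCODE 29. Genes averaging 1 TPM or more (14458) were tested on log2(TPM + 1) with limma 3.58.1 in R 4.3.3 (lmFit, eBayes with a variance trend, 2.54 prior degrees of freedom, no block), two-sided, with Benjamini-Hochberg adjustment at 0.05. TPM keeps no depth, so reads were rebuilt from TPM and exon length with a scale per library under which 88.7% to 89.3% of values of up to 20 reads came within 0.05 of a whole number. They are estimates. Windows are 20 Mb bins with at least 20 tested genes. The test was tested on simulated data. The members and lists were chosen with earlier results of these data known, and the voom fit on rebuilt reads and the search strings were chosen after seeing the data. All 38 members are named, and from each other list up to 4 called genes with the largest absolute change and a group mean of at least 5 TPM, beside checks and genes named for their role (TRMT10C and PRORP). Other steps ran in Python 3.11.15 (numpy 2.4.6, pandas 2.3.3, matplotlib 3.10.9, scipy 1.17.1).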

Additional observations from a re-analysis of the deposited data

How the results depend on the processing

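With only 2 libraries per group, the calls depend on how the spread is estimated. The 6 lower mtDNA-encoded genes became 1 without a filter, 3 with a replicate block and 0 when a change of 1 log2 unit was required too, and quantile normalization gave 3 lower and 3 higher. The lower nuclear factors numbered 2 after quantile normalization and 3 with voom on rebuilt reads. Centred on windows 1 nuclear factor was higher, and with the fold limit 0 were, while all genes came to 734 higher and 554 lower. Leaving out 1 library in turn gave 0 to 4543 genes higher and 0 to 3185 lower in all, 0 to 7 lower mtDNA-encoded genes, and 0 to 6 higher and 0 to 4 lower nuclear factors. The lone library is then assumed to vary like the other group. The difference in the mtDNA-encoded share of TPM ranged from -3.35 to -1.51 points. The replicate block left 3929 genes called, and MT-ND1, MT-ND2 and MT-CYB lost their calls. The labels give no origin for the numbers, and same-numbered libraries did not deviate together (correlation -0.03), so the block is given only here.

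After quantile normalization MT-ND1, MT-CO1 and MT-CO2, which keep the same rank in all 4 libraries, came to 0, MT-ND6 turned to 0.16, and TEFM (-0.0230), MTERF1 (-0.0460) and POLG2 (-0.0330) turned too. With median-of-ratios scaling MT-CO1 (-0.0392), TEFM (-0.0126), MTERF1 (-0.0397) and POLG2 (-0.0111) turned. With voom MT-CO1 (-0.0560), TEFM (-0.0064), MTERF1 (-0.0704) and POLG2 (-0.0439) did. Without mtDNA rows MTERF1 was at -0.0110. Centred on windows TFB1M (0.18), MTERF4 (-0.0193) and FASTKD5 (0.37) turned. With 1 library left out, changes ranged from -0.11 to 0.15 for MT-CO1, -0.0133 to 0.18 for MT-ND4L, -0.0325 to 0.18 for MT-ND4, -0.14 to 0.23 for TEFM, -0.0803 to 0.10 for MTERF1, -0.39 to 0.0012 for MTERF2, -0.14 to 0.23 for POLG2 and -0.27 to 0.0409 for FASTKD5. The cause was not tested.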
